A study of Caenorhabditis elegans with 12 samples.

Results

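Fluvastatin was compared with no drug in Caenorhabditis elegans carrying a mutation in dlk-1. The comparison rests on 6 of the 12 libraries of the study, 3 from mutant worms given 1 mM fluvastatin and 3 from mutant worms at 0 mM, chosen by the genotype and dose in the sample titles. The other 6 libraries are wild type at the same doses. They entered the same fit, where they add to the estimate of the spread and of the replicate effect, and they serve to test whether the drug response differed between genotypes. In both genotypes, synchronized whole animals were raised on OP-50 bacteria to the fourth larval stage (L4), moved to seeded plates with or without the drug, and collected 9 h later for total RNA. The dlk-1 mutation is therefore shared by the treated and control groups compared. The titles call these animals p38_KO while the protocols call them dlk-1 mutants, without naming an allele. The replicates are numbered 1 to 3, with about 4 plates per condition, and nothing says whether they were separate cultures, so p-values measure only the spread between these samples, which may be technical.

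Fluvastatin is a statin, which blocks HMG-CoA reductase, the rate-limiting enzyme of the mevalonate pathway. That pathway makes the prenyl groups of small GTPases, ubiquinone, dolichol and haem A. In mammals it also makes cholesterol, which worms take from food. DLK-1 is a MAP kinase kinase kinase that acts through MKK-4 and the p38 kinase PMK-3 on the transcription factor CEBP-1, and is best known for axon regeneration and synapse development in worm neurons. A separate p38 kinase, PMK-1, controls intestinal defence genes in the worm.

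The 6 mutant libraries held 10124170 to 12438131 reads with 1 transcript model counted per gene. Defining markers of gut (elt-2, ges-1, ifb-2), body wall muscle (unc-54, myo-3), neurons (unc-119, rgef-1, ric-4), germline (glp-1, pgl-1), sperm (msp-3, msp-142) and epidermis (dpy-7, col-19) were read in all 6, as whole animals should give, and none of these 14 genes was called. Transcripts of dlk-1 (F33E2.2, minus strand of chromosome I, 12565800 to 12572801, overlapping mec-19) were present in the mutant at 481, 541 and 506 normalised reads at 0 mM in replicates 1, 2 and 3, against 961, 791 and 911 in wild type. The first principal component of the mutant libraries (61.7% of the variance) set the replicate numbers apart, with replicate 2 at 78.7 and 80.7 and the other 4 libraries between -63.9 and -19.2. The second and the third components placed each fluvastatin library below the control of its own number. Summed sperm genes and summed cuticle collagens, which change with larval stage, were lowest in both libraries of replicate 2. Changes were therefore measured within pairs of the same replicate number, and counts without this pairing are given beside the results where they differ by more than 1.5 times.

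Fluvastatin changed 980 of 15529 genes tested in the mutant, with 500 higher and 480 lower. These are 6.31% of the genes tested, 3.22% for rises and 3.09% for falls. Changes are differences of log2(normalised reads + 1), which understates the change of low genes, given with the standard error (SE, n = 3 pairs). A gene was called at an adjusted p under 0.05 by limma with the replicate number as a block, Benjamini-Hochberg adjusted over all genes tested. The rises were larger than the falls. The median called rise was 0.93 and the median called fall -0.51 on the log2 scale, and 227 rises but 94 falls reached 2-fold. All 980 genes moved the same way in all 3 pairs. Calling on changes within pairs favours such genes, so this is not separate support for the calls. In 647 of the 980 the 3 treated and 3 control values did not overlap, against 1231 of all genes tested (7.93%). Without the replicate block 214 genes were called (1.38%), 175 higher (1.13%) and 39 lower (0.251%), so most falls rest on the pairing, and all 214 were also called with it. With the libraries of replicate 1, 2 or 3 left out, 346, 343 and 351 genes were higher and 218, 277 and 212 lower. Of the called genes named by rule, 33 lost the call when 1 mutant library was left out, and 60 did so in at least 1 of the 9 ways of leaving out a library or a replicate number. These are marked below where the call is described. Genes that reached no 10 normalised reads in any control library of either genotype entered the test through treated libraries alone. There were 61, of which 33 rose, so for weakly expressed lists the share of rises is in part set by that filter. The lists of glutathione S-transferases, short-chain dehydrogenases, nuclear hormone receptors and PMK-1 targets each held 1 of these 33 rises. So did those of C-type lectins, lipases and phospholipid flippases. Since whole worms were sequenced, fewer cells of a type and less RNA per cell cannot be told apart in any of these changes.

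**Figure D1:**
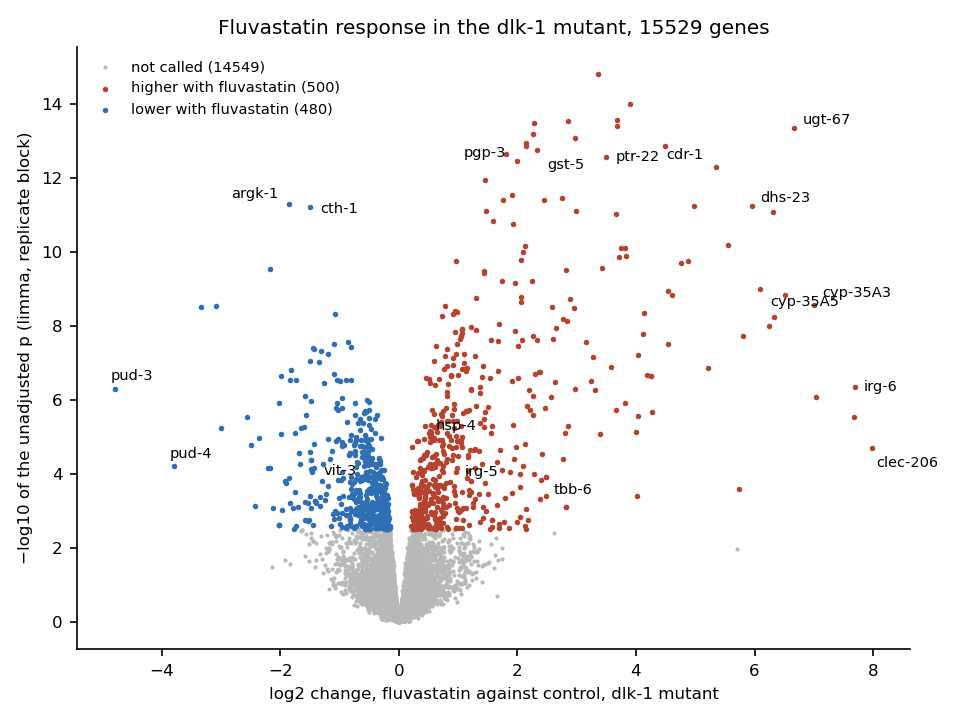
Log2 change with fluvastatin in the dlk-1 mutant (x axis) against −log10 of the unadjusted limma p (y axis), 1 point per gene, with called rises in red, called falls in blue and the other genes in grey. The points spread farther to the right, with 34 rises of log2 4 or more, than to the left, where 17 falls reach -2.

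Most of the largest rises were in genes with few reads in untreated mutants. Among the 15 largest rises of genes with a mean of at least 5 CPM, 4 were cytochrome P450 genes, 2 encoded UDP-glucuronosyltransferases and 1 a short-chain dehydrogenase, all enzyme families that modify foreign compounds. Of the 500 called rises, 61 started from a control mean under 10 normalised reads. The 15 include clec-206, a C-type lectin, irg-6, an infection response gene, tat-6, a phospholipid flippase, and cdr-1, a gene known for its induction by cadmium. H25K10.4, Y73C8C.10, T10B5.8 and cest-35.2, of which the last is a carboxylesterase gene by its name, complete the list with the enzymes below. The calls of clec-206, Y73C8C.10 and cest-35.2 were lost without the libraries of replicate 1 (adjusted p up to 0.262).

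cyp-35A3 (K09D9.2, plus strand of chromosome V, 4022609 to 4024482) stood at 11.2, 5.71 and 24.4 normalised reads in the untreated mutant replicates and at 1875, 1276 and 1838 with fluvastatin. Every treated library was far above every control. The log2 change was 7.005 ± 0.29 (adjusted p = 6.91e-07). Of the 4 P450 genes among the 15, cyp-35A5 had the highest treated level, going from 39.6, 32.4 and 54.6 to 3154, 2396 and 3201, with a log2 change of 6.10 ± 0.21 (adjusted p = 3.05e-07). cyp-35A4 went from 2.03, 2.86 and 1.16 to 583, 219.9 and 443 and cyp-35A1 from 4.07, 5.71 and 10.5 to 758, 414 and 621, and in none of the 4 did treated and control values overlap. cyp-35C1, which is not among the 15, reached more reads, from 209, 190.4 and 294 to 6227, 4667 and 5882. The cyp-35 enzymes are known in worms for their induction by many drugs and environmental chemicals. All 9 cyp-35 genes tested rose, by log2 2.84 to 7.04, and all 9 did so without the block as well.

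Cytochrome P450 genes as a family moved in both directions. Of 61 tested, 24 rose and 9 fell (39.3% and 14.8%, against 3.22% and 3.09% of all genes tested), with a median log2 change of 0.14 against 0.01 for all genes. Without the replicate block 15 rose and none fell. Among the 24 rises, 3 were in genes that entered the test through treated libraries alone. Counted by subfamily, after the values were seen, the cyp-14A genes gave 4 rises and 1 fall among 5, the cyp-34A genes 2 rises and 2 falls among 6, and the cyp-25A genes 3 falls among 6. cyp-34A2 had the largest P450 fall, with a log2 change of -2.20 ± 0.39, and cyp-25A1 followed at -1.45 ± 0.13. Falls numbered 5 with the libraries of replicate 1 left out. Summed over the 61 genes, P450 reads went from 11501, 12110.1 and 11768 normalised reads in the control replicates to 29162, 24376 and 28268 with fluvastatin and no treated sum was near a control sum.

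UDP-glucuronosyltransferases join sugars to drugs and other small molecules so that they can be excreted. Of 61 genes tested, 26 rose and 8 fell (42.6% and 13.1%), and 22 rises and 2 falls were also called without the block. Among the 26 rises, 2 were in genes that entered the test through treated libraries alone. ugt-67 (H23N18.4, plus strand of chromosome V, 4901374 to 4903272) went from 4.07, 3.81 and 6.98 to 799.6, 357 and 708 normalised reads, with the 3 treated libraries all far above the 3 controls. Its log2 change was 6.67 ± 0.21 (adjusted p = 9.52e-11). ugt-10 (5.55) and ugt-9 (4.04) lie 57 bases apart on opposite strands of chromosome V, and the kit does not mark strand, so reads near their shared boundary cannot be assigned. ugt-33 rose from 11.2, 3.81 and 10.5 to 345, 173 and 218. The other 22 rises ranged from log2 0.50 to 3.71. The exception among large changes was ugt-53, which went from 118, 144 and 128 to 10.1, 36.3 and 9.51. Its treated values were all below its controls, for a log2 change of -2.996 ± 0.36 (adjusted p = 0.000354, and 0.0727 without the libraries of replicate 1).

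**Figure D2:**
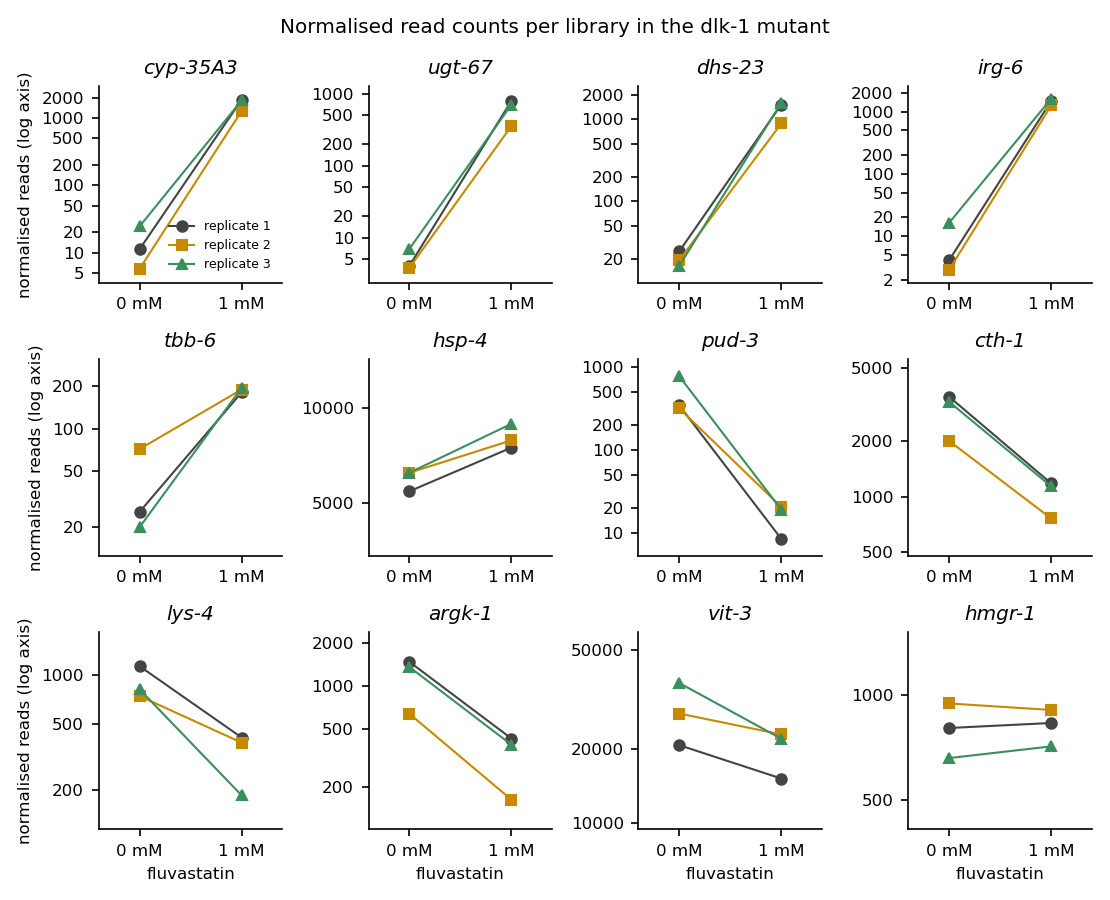
Normalised reads on a log axis for 12 genes at 0 and 1 mM fluvastatin in the dlk-1 mutant, with a line joining the libraries of each replicate number. All 3 lines slope up for cyp-35A3, ugt-67, dhs-23, irg-6, tbb-6 and hsp-4 and down for pud-3, cth-1, lys-4, argk-1 and vit-3, while for hmgr-1, which was not called, 2 rise and 1 falls.

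Other enzymes of drug handling gave smaller numbers of calls, at shares still above the 3.22% of rises and 3.09% of falls among all genes tested. Rises and falls were 12.9% and 6.45% of short-chain dehydrogenases and 15% and 12.5% of glutathione S-transferases. The short-chain dehydrogenase gene dhs-23 went from 24.4, 19 and 16.3 to 1511, 888 and 1589 normalised reads, a log2 change of 5.96 ± 0.19 (adjusted p = 3.51e-09), and no treated value was near a control value. It was 1 of 4 rises among 31 short-chain dehydrogenases (2 rises without replicate 2 or 3), of which 2 fell (0 without replicate 3), and without the block 2 rises and 0 falls were called. dhs-3, a lipid droplet protein gene, was among the falls (log2 -0.45 ± 0.10), and 7 of the 9 ways of leaving out libraries ended its call. Glutathione S-transferases, which couple toxic compounds to glutathione, gave 6 rises and 5 falls among 40, and the falls were 1 to 5 on leaving out a library or a replicate number. Without the block there were 4 rises and 0 falls. gst-5 went from 267, 171 and 249.97 to 1214, 811 and 1514 without overlap (log2 2.34 ± 0.08, adjusted p = 2.03e-10), and gst-21 from 11.2, 9.52 and 6.98 to 236, 89.5 and 208. gst-4, the usual reporter gene of the oxidative stress factor SKN-1 in worms, fell instead, from 260.2, 179 and 278 to 169.7, 150.02 and 171 (log2 -0.52 ± 0.13, adjusted p = 0.0263), but only with the block (adjusted p = 0.403 without it). That call ended in 7 of the 9 ways of leaving out libraries, with adjusted p up to 0.233.

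Transporters of the ABC family pump drugs and lipids out of cells. Of 48 tested, 9 rose and 4 fell (18.8% and 8.33%, against 3.22% and 3.09% of all genes tested), and 2 rises were called without the block. Leaving out the libraries of replicate 1 gave 5 rises, and leaving out those of replicate 2 gave 2 falls. The P-glycoprotein gene pgp-3 went from 495, 324 and 424 to 2047, 1196 and 1794 normalised reads and pgp-1 from 62, 41.9 and 75.6 to 282, 431 and 348. Neither gene's groups overlapped, and the log2 changes were 2.001 ± 0.07 and 2.56 ± 0.23 (adjusted p = 3.27e-10 and 7.29e-05). pgp-14 rose by log2 1.57 and its neighbour in name, pgp-13, changed by log2 -1.27. Nuclear hormone receptors, the transcription factors that sense lipids and xenobiotics, gave 26 rises and 2 falls among 178 (14.6% and 1.12%). Without the block 5 rises were called, and without the libraries of replicate 3 there were 16. The receptor gene nhr-178 went from 2.03, 0.952 and 2.33 to 22, 31.7 and 21.1 and nhr-237 from 27.4, 19.996 and 36 to 126, 128 and 131, with log2 changes of 3.24 ± 0.35 and 2.20 ± 0.24. The other 24 receptor rises ranged from log2 0.31 to 1.92.

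Genes of metal and haem handling gave 9 rises and 2 falls among 42 tested (21.4% and 4.76%), with 5 rises and 0 falls called without the block. Leaving out the libraries of any replicate number gave 0 falls. cdr-1 (F35E8.11, plus strand of chromosome V, 15921309 to 15922820) went from 13.2, 4.76 and 5.81 to 372, 261 and 387 normalised reads, with no overlap (log2 5.35 ± 0.20, adjusted p = 4.49e-10). The haem-responsive genes hrg-2, a haem-handling membrane protein gene, and hrg-3, whose product carries haem from the gut to other tissues, rose by log2 2.65 ± 0.22 and 3.15 ± 0.28. hrg-3 overlaps F58E6.11, whose reads cannot be told apart from its own. The metallothionein gene mtl-1, which encodes a metal-binding protein, went from 19.3, 8.57 and 10.5 to 84.4, 41 and 51.8. It was called with the block (adjusted p = 0.000794) and not without it (adjusted p = 0.117).

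**Figure D3:**
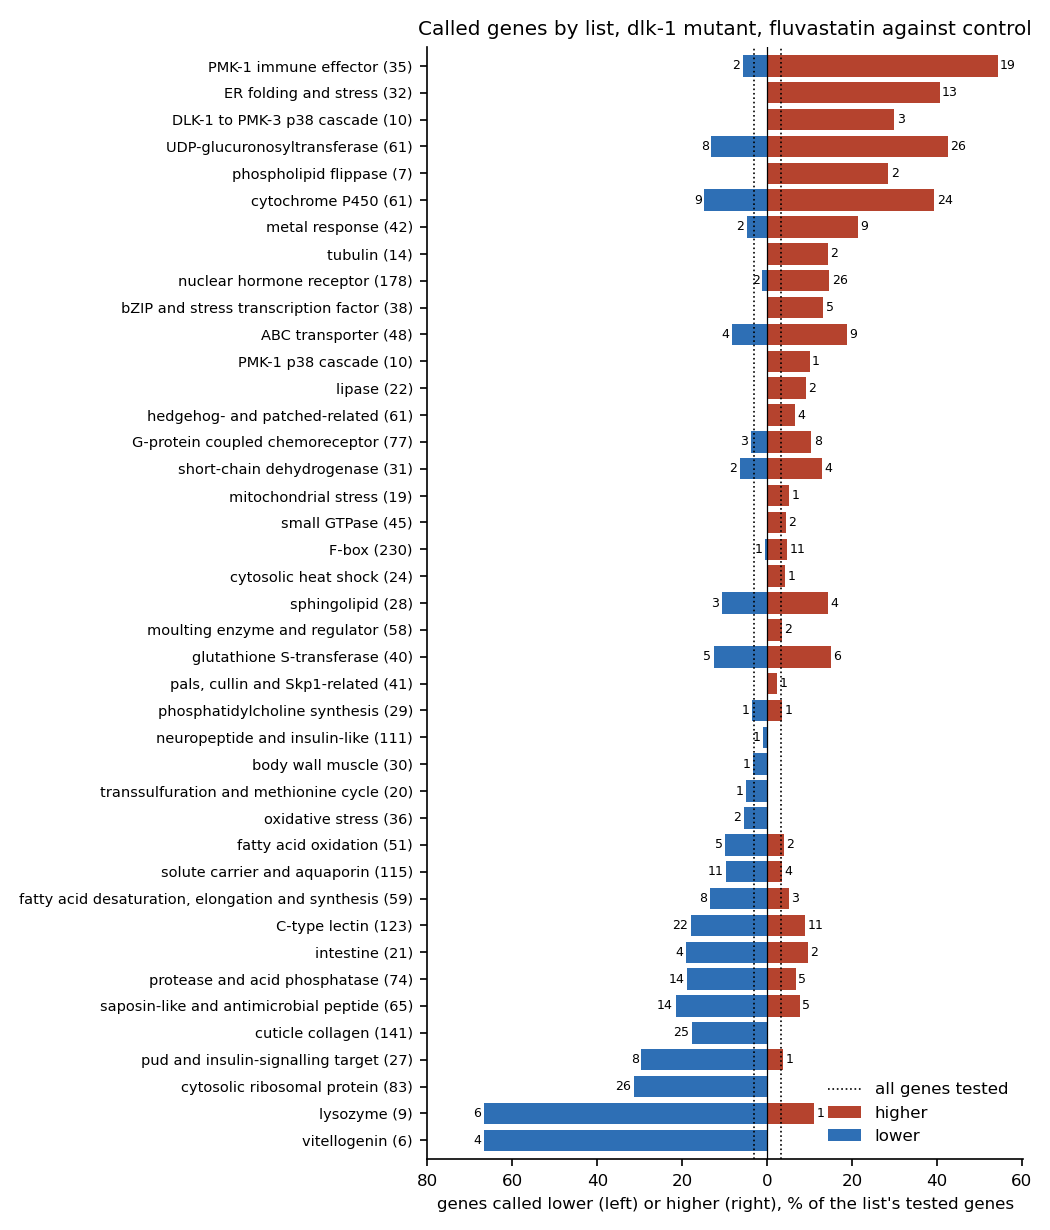
Share of each gene list called higher (red, right) or lower (blue, left) with fluvastatin in the dlk-1 mutant, with the number of genes at the bar end and the number tested in brackets. Dotted lines mark the shares over all genes tested, 3.22% and 3.09%. Lists with no called gene are left out.

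Infection response genes listed as targets of the PMK-1 p38 kinase formed the list with the highest share of rises. The list also took in cluster neighbours of irg-6 and irg-5, and it was chosen with earlier results of these data known. Of 35 tested, 19 rose and 2 fell (54.3% and 5.71%), with a median log2 change of 0.61, and without the block 9 rose. irg-6 (C32H11.1, minus strand of chromosome IV, 12912722 to 12914969) went from 4.07, 2.86 and 16.3 to 1486, 1259.8 and 1620.5 normalised reads, and no treated value came near a control. Its log2 change was 7.70 ± 0.45 (adjusted p = 4.2e-05). irg-4, which was already expressed in untreated mutants, went from 501, 223 and 572 to 3252, 2508 and 3825 (log2 2.97 ± 0.19, adjusted p = 4.66e-05). cld-1 and dod-21, neighbours of irg-6 in the same gene cluster, rose by 2.85 ± 0.39 and 2.80 ± 0.40. Their values were close to each other in every mutant library (41.4, 33.5 and 52.8 against 39.7, 34.5 and 51.8 with fluvastatin). Reads of cld-1 and dod-21 may therefore be shared, so these are not shown to be independent rises. A further cluster member counted in this list by its sequence name is srz-15, a chemoreceptor gene 809 bases from irg-6, at 0, 0 and 1.16 and 17.7, 14.9 and 19. The falls in the list were irg-3 (log2 -1.58 ± 0.18) and dod-24 (-1.12 ± 0.17), named here after their values were seen. Of the PMK-1 cascade itself, 1 of 10 genes changed. This was vhp-1, the phosphatase that switches p38 and JNK kinases off in worms, which went from 1759, 1706 and 1816 to 2499, 2649 and 2396 (log2 0.51 ± 0.07, adjusted p = 0.000473). The kinase gene pmk-1 was not called (log2 -0.03 ± 0.09).

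The other families of intestinal defence fell more often than they rose. C-type lectins, secreted proteins that bind sugars, gave 11 rises and 22 falls among 123 (8.94% and 17.9%), and 3 rises and 5 falls without the block. Without the libraries of replicate 1 or 3 there were 13 and 11 falls. clec-206 (F59A7.1, minus strand of chromosome V, 2000418 to 2004329) went from 2.03, 0.952 and 15.1 to 1528, 793 and 1273 normalised reads, which was the largest change of any called gene at log2 7.98 ± 0.74 (adjusted p = 0.000991, and 0.114 without the libraries of replicate 1). clec-209 gained the most reads of the lectins, going from 2674, 2560.5 and 3098 to 12677, 10904 and 13214 (log2 2.14 ± 0.07), and its values track those of F56A4.2 within 5% in every library, so the reads of these 2 genes may be shared. In the other direction clec-70 went from 66.1, 35.2 and 97.7 to 9.29, 13 and 8.45, and clec-166 from 162, 76.2 and 134 to 25.3, 41.9 and 27.5, without overlap in either (log2 -2.49 ± 0.37 and -1.91 ± 0.33). The clec-166 call was lost without replicate 1 or 3. Lectin reads summed over the list were higher with fluvastatin, 43336 to 49971 against 33809 to 40772, although more lectins fell than rose. The gain of clec-209, whose reads may be shared, was by itself nearly as large as that of the sum.

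Lysozymes, which digest bacterial cell walls, fell in 6 of 9 genes tested and rose in 1, lys-2, with 2 falls and 0 rises called without the block. lys-4 (F58B3.1, minus strand of chromosome IV, 11621429 to 11623174) went from 1125, 742 and 815 to 416, 388 and 186 normalised reads, with all treated values below all controls. Its log2 change was -1.50 ± 0.24 (adjusted p = 0.0106, and 0.049 without the block), and leaving out its control library of replicate 1, or that replicate number, ended the call (adjusted p up to 0.287). Its neighbours lys-5 and lys-6, which follow within 1327 bases of each other on the same strand, fell by similar amounts (log2 -1.57 ± 0.20 and -1.84 ± 0.20). ilys-5, an invertebrate-type lysozyme gene on chromosome X, went from 1628, 1294 and 1763 to 722, 813 and 816 (log2 -0.98 ± 0.10). Saposin-like and antimicrobial peptide genes gave 14 falls and 5 rises among 65, and without the block 4 falls and 0 rises. Falls numbered 8 when replicate 1 was left out, and rises 2 to 5 on leaving out a library or a replicate number. thn-2, which encodes a thaumatin-like protein, went from 222, 131 and 258 to 36.3, 31.7 and 68.7 and the adjacent thn-1 from 55.9, 34.3 and 70.9 to 10.1, 8.39 and 21.1, and neither overlapped (log2 -2.16 ± 0.32 and -1.99 ± 0.29). thn-2 lost its call without replicate 1 (adjusted p = 0.217). The rises included fipr-24 and fipr-22, small peptide genes of the same cluster, at log2 1.55 ± 0.22 and 1.28 ± 0.20, both called only with the block.

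Protein folding genes of the endoplasmic reticulum (ER) rose moderately. Of 32 tested, 13 rose, the other 19 were not called, 29 had a positive log2 change, and the median was 0.19 against 0.01 for all genes. Without the block 3 were called, and without the libraries of replicate 3 there were 8. hsp-4, the chaperone BiP and the usual reporter of the ER unfolded protein response in worms, stood at 5448, 6235 and 6236 normalised reads without drug and 7489.8, 7898 and 8909 with it. The lowest treated value was above the highest control. The log2 change was 0.44 ± 0.06 (adjusted p = 0.000323, and 0.0518 without the block). ckb-2, a choline kinase gene counted in this list as an ER stress target, went from 276, 355 and 222 to 682, 794 and 830.3 (log2 1.45 ± 0.15, adjusted p = 0.000157). dnj-7, an ER co-chaperone gene, and pdi-6, a protein disulfide isomerase gene, rose by 0.68 ± 0.10 and 0.46 ± 0.05, and both calls held without the block. xbp-1, the transcription factor of this stress response, rose by log2 0.22 ± 0.04. Summed over the list, each treated library was above its own control, with 101489, 114420 and 118488 normalised reads at 0 mM and 117070, 128179 and 134141 with fluvastatin.

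The cascade that starts with DLK-1 was read at several steps. Of its 10 genes tested, 3 rose, namely tbb-6, dlk-1 and cebp-1, and 1 without the block (tbb-6) or without the libraries of replicate 3. tbb-6 (T04H1.9, plus strand of chromosome V, 12261531 to 12263368), a beta-tubulin gene known in worms to depend on PMK-3 when mitochondria fail, went from 25.4, 71.4 and 19.8 normalised reads to 182, 190.1 and 195. Treated values were nearly level, all above the controls, and control replicate 2 was the highest of its group. The log2 change was 2.48 ± 0.36 (adjusted p = 0.00422, and 0.0316 without the block), and the call was lost without the libraries of replicate 1 (adjusted p = 0.278). dlk-1 itself went from the control values given above to 792, 706 and 804, without overlap (log2 0.59 ± 0.10, adjusted p = 0.00255). Reads from mec-19 in the same place may be part of these values. cebp-1 went from 200.2, 169 and 257 to 260.1, 314 and 337 (log2 0.55 ± 0.15, adjusted p = 0.0473). Neither dlk-1 nor cebp-1 was called without the block (adjusted p = 0.0969 and 0.959). dlk-1 also lost its call without replicate 3, and cebp-1 in 7 of the 9 ways of leaving out libraries. The kinase genes mkk-4 and pmk-3 were not called, with log2 changes of 0.15 ± 0.12 and 0.22 ± 0.13.

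No gene of the mevalonate and prenyl pathway was called. hmgr-1 (F08F8.2, plus strand of chromosome III, 7359498 to 7362129), which encodes the drug's target HMG-CoA reductase, stood at 803, 945 and 658 normalised reads at 0 mM and 830.0, 905 and 711 with fluvastatin. The groups overlapped throughout and the pairs disagreed in sign. Its log2 change was 0.03 ± 0.06. hmgs-1, HMG-CoA synthase, changed by -0.04 ± 0.08. Over the 16 genes of the list the log2 changes ran from -0.12 to 0.37 with a median of 0.00, 2 genes had an unadjusted p under 0.05 in limma, and edgeR and DESeq2 called 0. The lowest p was that of F32D8.13 (48.8, 64.7 and 44.2 against 67.6, 74.5 and 61.3). Small GTPases include proteins that carry prenyl groups, but not every member of the family does. Among 45 tested, 2 rose with the block only (4.44%, close to the 3.22% of all genes). They were warf-1, an Arf-like GTPase gene (log2 1.37 ± 0.33), and glo-1, a Rab gene of gut granules (log2 0.80 ± 0.17). Both calls ended on leaving out the fluvastatin library of replicate 1 or that of replicate 3, or all libraries of either number.

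Stress genes of mitochondria and cytosol gave few calls. Rises were 5.26% of the mitochondrial stress list and 4.17% of the cytosolic heat shock list, against 3.22% of all genes tested. Falls were 5.56% of the oxidative stress list, against 3.09%. These shares rest on 1 or 2 genes each. Of 19 mitochondrial stress genes, the list led by the unfolded protein response reporters, 1 rose: atfs-1, the transcription factor of that response, at log2 0.22 ± 0.05 (adjusted p = 0.0213, and 1.0 without the block). Its call ended in 8 of the 9 ways of leaving out libraries. The chaperone genes hsp-6 and hsp-60 were not called, with log2 changes of -0.04 ± 0.06 and -0.12 ± 0.05. hsp-6 stood at 3482, 3929 and 4381 and 3275, 4054 and 4193, overlapping. Of 24 cytosolic heat shock genes, 1 rose, hsp-17 (log2 0.65 ± 0.11), which overlaps F52E1.14, again with the block only, and not without replicate 3. Only 4 of the 24 had a positive log2 change. The list median was -0.16, and -0.05 without the libraries of replicate 1. Of 36 oxidative stress genes, 2 fell, gst-4 as above and the catalase gene ctl-2 (log2 -0.45 ± 0.08), with 0 falls without the block, without replicate 1 or without replicate 3. Genes of the respiratory chain encoded in the nucleus gave 0 calls among 46 by limma, edgeR and DESeq2. All 46 had a negative log2 change between -0.27 and -0.00, and 18 had an unadjusted p under 0.05.

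With the block, genes of fatty acid metabolism gave more falls than rises. Falls were 13.6% of the synthesis list and 9.80% of the oxidation list, against 3.09% of all genes tested. Rises were 5.08% and 3.92%, close to the 3.22% of all genes. Fatty acid desaturation, elongation and synthesis gave 8 falls and 3 rises among 59, against 1 fall without the block and 3 to 10 falls on leaving out 1 mutant library or 1 replicate number. elo-5 and elo-6, elongases of the branched-chain fatty acids that worms make, went from 1352, 1132 and 1363 to 955, 791 and 1055 and from 2844, 2567 and 2839 to 1940.4, 1919 and 1986. Neither overlapped, and the log2 changes were -0.46 ± 0.07 and -0.50 ± 0.06 (adjusted p = 0.000621 and 9.65e-05). elo-6 was also called without the block (adjusted p = 0.0111). fat-5, a desaturase of palmitic acid, rose (log2 0.80 ± 0.10), while the stearic acid desaturase genes fat-6 and fat-7 were not called. fat-7 stood at 1041, 634 and 1049 and 421, 579 and 360.2, with every treated value under every control (log2 -0.99 ± 0.35, adjusted p = 0.208). Fatty acid oxidation gave 5 falls (1 to 6 on leaving out a library or a replicate number) and 2 rises among 51, and 0 falls and 1 rise without the block, with hacd-1, a hydroxyacyl-CoA dehydrogenase gene, lower at log2 -0.96 ± 0.14 and acs-2, an acyl-CoA synthetase gene, higher at 0.74 ± 0.15. hacd-1 was not called without replicate 1, nor acs-2 without either mutant library of replicate 3.

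Sphingolipid genes gave some of the larger lipid changes, in both directions. Of 28 tested, 4 rose and 3 fell, with 2 rises and 0 falls without the block. gba-2, a glucosylceramidase gene (C33C12.8, minus strand of chromosome II, 2182494 to 2186434), went from 4.07, 11.4 and 11.6 to 381, 249 and 429 normalised reads, and cgt-1, a ceramide glucosyltransferase gene, from 92.5, 48.6 and 45.3 to 979.5, 649 and 929. These enzymes remove and add the same glucose on ceramide. Both changes were without overlap (log2 5.22 ± 0.37 and 3.81 ± 0.17, adjusted p = 1.72e-05 and 3.37e-08). gba-4 and asah-2, the latter an acid ceramidase gene, were called lower with the block only, with log2 changes of -0.74 ± 0.11 and -1.09 ± 0.10. Of 7 phospholipid flippases, 2 rose (28.6%, against 3.22% of all genes tested). They were tat-6, from 3.05, 0.952 and 4.65 to 419.7, 201 and 276 (log2 6.34 ± 0.39), and tat-2 (log2 0.70 ± 0.14). The tat-2 groups overlapped, and its call ended without the block or without the fluvastatin library of replicate 2. Among these 2 rises, 1 was in a gene that entered the test through treated libraries alone. ptr-22, a patched-related membrane protein gene, went from 66.1, 28.6 and 51.2 to 683, 392 and 542 (log2 3.49 ± 0.12, adjusted p = 2.7e-10). It was 1 of 4 rises among 61 hedgehog- and patched-related genes, of which 1 was called without the block. Among 22 lipases, lips-10 rose with the block (log2 0.81 ± 0.09) and lips-11 was called at no more than 13.7 normalised reads in any mutant library. Neither was called without the block, and the lips-11 call ended in 8 of the 9 ways of leaving out libraries.

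The deepest called falls were those of pud-3 and pud-4, of the pud genes named for proteins raised in insulin receptor mutants. Of 27 pud and insulin-signalling targets, 8 fell and 1, dod-21, rose, and 4 falls were called without the libraries of replicate 1 or of replicate 3, and 2 without the block. pud-3 (F15E11.15, minus strand of chromosome V, 2324634 to 2325152) went from 345, 316 and 773 to 8.44, 20.5 and 19 normalised reads and pud-4, 1525 bases away on the other strand, from 103.7, 59 and 177 to 2.53, 10.3 and 9.51. The treated libraries were the lowest in both genes, without overlap, and control replicate 3 was the highest. The log2 changes were -4.78 ± 0.36 and -3.79 ± 0.56 (adjusted p = 4.66e-05 and 0.00245), and the pud-4 call was lost without replicate 1 (adjusted p = 0.19). pud-1.1 and pud-1.2, whose sequences the reads may not part, went down to similar extents (log2 -1.68 ± 0.20 and -1.67 ± 0.21), with adjusted p = 0.0541 and 0.0581 without the block. Both calls also ended without replicate 1. pud-2.1 and pud-2.2, also among the 8 falls (log2 -1.48 ± 0.19 each), had equal values in every mutant library. The 8 falls are therefore not independent counts.

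cth-1 (F22B8.6, plus strand of chromosome V, 16100680 to 16102750), which encodes a cystathionine gamma-lyase of the transsulfuration pathway from methionine to cysteine, had the second lowest p among the falls, after argk-1. It went from 3503, 2010.1 and 3287 normalised reads to 1179, 759 and 1136. Treated and control values did not overlap. The log2 change was -1.50 ± 0.07 (adjusted p = 3.51e-09, and 0.0242 without the block), and the other 19 genes of its list were not called. The chemoreceptor gene str-7, 1138 bases away on the opposite strand, fell from 109.8, 55.2 and 77.9 to 12.7, 4.66 and 9.51 (log2 -3.08 ± 0.23). argk-1 (F44G3.2, plus strand of chromosome V, 16103894 to 16105952), an arginine kinase gene, begins 1143 bases past the other end of cth-1 on the same strand and went from 1474, 642 and 1357 to 431, 162 and 391. All 3 treated values lay below all controls, with a log2 change of -1.85 ± 0.08 (adjusted p = 3.34e-09, and 0.155 without the block). How far these neighbours share reads was not tested.

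Digestive genes of the gut fell more often than they rose. Among 74 proteases and acid phosphatases, 14 fell and 5 rose (18.9% and 6.76%), with 3 falls and 1 rise called without the block, and 6 and 7 falls without the libraries of replicate 1 or 3. pcp-3, a prolyl carboxypeptidase-like gene, went from 1789, 1310.2 and 1995 to 858, 488 and 513 normalised reads, and asp-13, an aspartyl protease gene, from 3515, 1888 and 2478 to 1435, 1035 and 989. Treated values were all below the controls in both (log2 -1.48 ± 0.14 and -1.16 ± 0.15, adjusted p = 9.13e-05 and 0.00173), and asp-13 was not called without replicate 3 (adjusted p = 0.111). asp-8, of the same protease family, rose (log2 1.43 ± 0.18). Of 21 gut markers, 4 fell, among them pho-1, a gut acid phosphatase gene (log2 -0.50 ± 0.08), and spp-5, a pore-forming peptide gene (log2 -0.56 ± 0.07), and 2 rose, the pumps pgp-1 and pgp-3 above. Without the block these 2 rises were called and no fall. The defining gut genes elt-2, ges-1 and ifb-2 were not called, and gut marker reads summed over the list overlapped, with 43502 to 62398 at 0 mM and 44103 to 52335 with fluvastatin. The part of gut RNA content in these falls was not tested. Solute carriers and aquaporins gave 11 falls (3 to 10 on leaving out a library or a replicate number) and 4 rises among 115, and 2 rises without the block, swt-6 (log2 2.27 ± 0.23) and swt-7 (1.58 ± 0.08), both sugar transporter genes. Falls were 9.57% of the list, against 3.09% of all genes tested, and rises 3.48%, close to the 3.22% of all genes. The swt-6 call ended without replicate 1 (adjusted p = 0.0774).

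**Figure D4:**
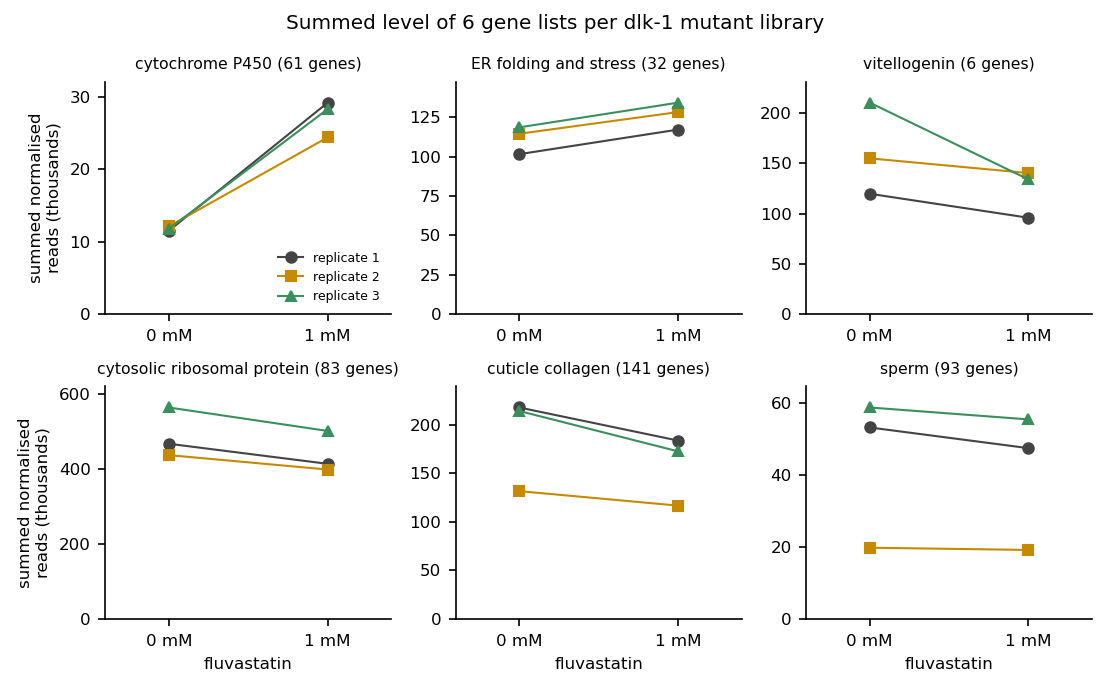
Normalised reads summed over the genes of 6 lists (y axis, in units of 1000, from 0) in each dlk-1 mutant library at 0 and 1 mM fluvastatin, with a line for each replicate number. P450 sums are higher at 1 mM in all 3 pairs, while collagen and sperm sums differ more between replicate numbers than between doses.

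Several abundant classes gave falls of which nearly all were called only with the replicate block. The vitellogenin genes vit-1, vit-3, vit-4 and vit-5, which encode yolk proteins made in the adult gut, fell, with log2 changes of -0.46, -0.49, -0.47 and -0.38. vit-3 went from 20711, 27795 and 36922 to 15179.8, 22874 and 21992, and the groups overlapped, with replicate 1 lowest at both doses (adjusted p = 0.0031, and 1.0 without the block). The 6 vitellogenin genes gave 4 falls, and 0, 4 and 3 when the libraries of replicate 1, 2 or 3 were left out. Cytosolic ribosomal protein genes gave 26 falls among 83 (31.3%), all small, with a list median of -0.16, 0 falls without the block and 5, 0 and 9 without the libraries of replicate 1, 2 or 3. rpl-38 had the largest of the called falls, from 7383, 6252 and 7543 to 6044, 5010.4 and 6853 (log2 -0.25 ± 0.05, adjusted p = 0.0073), and its call ended without either mutant library of replicate 2. Cuticle collagens gave 25 falls among 141 (17.7%), 1 without the block, 14, 15 and 7 without replicate 1, 2 or 3, and 51 when the 6 mutant libraries were fitted alone. col-137 had the largest, from 599, 123.8 and 234 to 296, 25.2 and 91.9, which overlapped across replicates (log2 -1.53 ± 0.30). The col-137 call ended without the fluvastatin library of replicate 2 or that of replicate 3. col-135, called with and without the block, went from 1212, 1238 and 1448 to 679.7, 867 and 677 without overlap (log2 -0.81 ± 0.12, adjusted p = 0.0523 without the libraries of replicate 1).

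Markers of other tissues gave few or no calls. Sperm genes (93), germline genes (58), neuron genes (56) and mitochondrially encoded genes (14) gave 0 calls by limma, edgeR and DESeq2, with 7, 4, 4 and 0 genes at an unadjusted p under 0.05. Oocyte and eggshell genes (37) gave 0 by limma and DESeq2 and 1 by edgeR, with 2 genes under that p. Sperm reads summed over the list were 53185, 19809 and 58727 at 0 mM and 47440.2, 19187 and 55419 with fluvastatin, so replicate 2 was low at both doses. Among 30 body wall muscle genes only dim-1 fell (log2 -0.20 ± 0.05), and among 111 neuropeptide and insulin-like genes only ins-13 (-0.49 ± 0.12), whose reads overlap those of acdh-2. Falls were 3.33% and 0.901% of these lists, against 3.09% of all genes tested. Without the block neither dim-1 nor ins-13 was called, and 6 and 7 of the 9 ways of leaving out libraries ended these calls. Moulting genes gave 2 rises among 58 (3.45%, close to the 3.22% of all genes). They were dpy-18, a prolyl 4-hydroxylase gene (log2 0.94 ± 0.17), and tep-1 (0.39 ± 0.07), both with the block only. dpy-18 was not called without the control library of replicate 1, nor tep-1 without replicate 2.

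Regulatory genes that changed did so mainly upward. Of 38 bZIP and other stress transcription factors, 5 rose with the block only (1 to 4 on leaving out a library or a replicate number), among them pqm-1 (log2 0.54 ± 0.08), zip-10 (0.51 ± 0.14) and zip-3 (0.43 ± 0.08), and cebp-1 as above. The zip-10 call ended in all 9 ways of leaving out libraries and that of zip-3 without replicate 2. F-box genes, whose products choose proteins for ubiquitination, gave 11 rises and 1 fall among 230 (4.78% and 0.435%, close to the background for rises, which were 5 to 9 on leaving out a library or a replicate number and 5 without the block). The fbxc genes fbxc-2, fbxc-4 and fbxc-3 each rose by log2 1.07. fbxc-2 and fbxc-4 match each other, fbxc-1 and fbxc-5 to within 5% in every library, so these are not independent counts. Of 41 pals, cullin and Skp1-related genes, 1 rose (2.44%, against 3.22% of all genes tested). This was pals-32 (log2 1.47 ± 0.35), in reads it may share with the overlapping str-46. It was not called without the block or in 7 of the 9 ways of leaving out libraries. The 14 tubulin genes gave 2 rises, tbb-6 and tba-7 (log2 0.69 ± 0.15). Without the libraries of replicate 1 neither was called, and tba-7 was called only with the block and lost its call in 6 of the 9 ways of leaving out libraries. Of 29 genes, phosphatidylcholine synthesis gave ckb-2 up and ckc-1, a further choline kinase gene, down (log2 -0.35 ± 0.08, with the block only and lost in 6 of the 9 ways). Of 1363 chemoreceptor genes listed only 77 passed the filter on low values, 5 of them through treated libraries alone, and these 5 include 3 of the 8 rises, so no share is read from this list. It had 3 falls, and 3 to 5 rises on leaving out a library or a replicate number and 2 rises and 1 fall without the block. Its pattern also took 2 serpin genes, and apart from srz-15 and str-7 above its named rises, srr-6 and srd-13, were low. srr-6 went from 3.05, 0 and 3.49 to 16, 11.2 and 11.6 normalised reads and srd-13 from 2.03, 1.9 and 2.33 to 13.5, 10.3 and 11.6, and leaving out 1 library could end either call.

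The same fit tested whether the mutant's response differed from that of wild type. In wild type 1091 genes were called (7.03%), 586 higher (3.77%) and 505 lower (3.25%), on libraries that share none with the mutant but carry the same replicate numbers. Of these, 770 were called in both genotypes with the same sign, 78.6% of the mutant calls and 70.6% of the wild-type calls. Among the 980 mutant calls, 974 had the same sign in wild type, against 70.3% of all genes tested. The change was larger in the mutant for 483 of the 980 mutant calls, for 273 of the 1091 wild-type calls and for 273 of the 770 shared calls. All 210 genes called in the mutant only are among the 483. The shared calls had a median absolute log2 change of 0.75 in the mutant and 0.83 in wild type. The difference between genotypes was called for 0 genes by limma (386 at an unadjusted p under 0.05, or 2.49%) and for 0 by edgeR (349). DESeq2 called 1 (118), irg-5. Of the 210 genes called in the mutant only, 35 had an unadjusted p under 0.05 for the difference, so a call in the mutant alone is not shown to be a difference.

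irg-5 (F35E12.5, minus strand of chromosome V, 13737010 to 13738474), an infection response gene, had the fourth lowest p for that difference in limma. In the mutant it went from 1029.6, 366 and 1188 to 3352, 1842 and 3647 normalised reads, and in wild type from 227, 69.6 and 155 to 2210.3, 1485 and 2416. Every pair rose in both genotypes, and the mutant controls were above all wild-type controls. The mutant call was lost without replicate 1 or 3, and without the block (limma adjusted p = 0.194). The log2 change was 1.88 ± 0.23 in the mutant and 3.87 ± 0.23 in wild type, a difference of -1.99 ± 0.33 (limma unadjusted p = 0.000544, adjusted p = 1.0, DESeq2 adjusted p = 0.000457, edgeR adjusted p = 1.0). F35E12.6, which lies 762 bases from irg-5, had the lowest p (log2 0.22 ± 0.05 in the mutant and 0.63 ± 0.05 in wild type, limma unadjusted p = 0.000125). Its mutant call ended without the block and in 7 of the 9 ways of leaving out libraries. scl-5, F09C8.1, Y54G2A.18 and srp-7 had smaller changes in the mutant than in wild type, with mutant log2 changes of -0.60, -0.31, 0.08 and 0.39 and wild-type changes of -1.98, -1.07, 0.46 and 0.79. dhp-1, a dihydropyrimidinase gene, went the other way, from 609, 399 and 429 to 381, 312 and 298 in the mutant (log2 -0.52 ± 0.08) and with a log2 change of -0.01 ± 0.08 in wild type. tbb-6 rose in both genotypes (in the mutant subject to replicate 1, as above), with a wild-type log2 change of 3.18 ± 0.36 and a difference of -0.70 ± 0.51 (unadjusted p = 0.21).

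**Figure D5:**
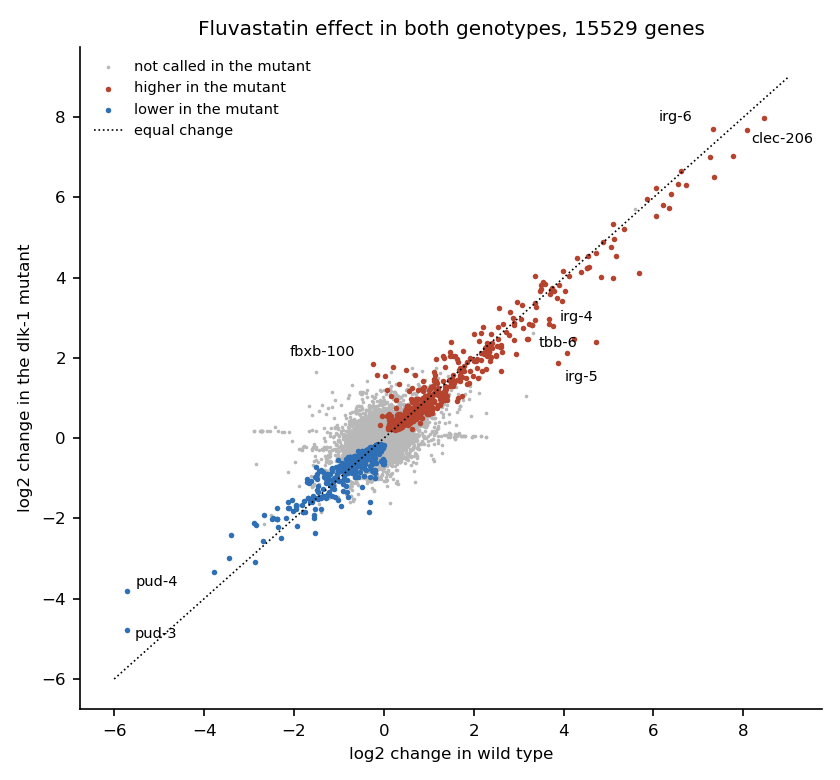
Log2 change with fluvastatin in wild type (x axis) and in the dlk-1 mutant (y axis), 1 point per gene, coloured by the call in the mutant, with a dotted line of equal change. Called genes lie along the line in both directions, and irg-5 is below it at 1.88 in the mutant and 3.87 in wild type.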

How the data were processed

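Whole C. elegans RNA was sequenced in 12 libraries, with a kit that does not mark strand and as 50 bp single reads, per the labels' protocols. The submitters' processing notes list Bowtie and DESeq2, with genome build, annotation and counter not given in the sources used here. Values were deposited as a normalised signal per transcript model, a read count that the authors divided by 1 size factor per library (0.843 to 1.18). Every value was a whole number of reads within 0.01 read (100.0% of values), so whole reads could be recovered. For each of 30301 genes, 1 of the 34873 models was kept, the one of highest mean value.

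The 15529 genes that reached a value of 10 in 3 or more libraries were analysed as log2(value + 1). One limma 3.58.1 fit (R 4.3.3, robust, with a mean-variance trend) took all 4 groups with the replicate number as a block, two-sided, and p-values were adjusted by Benjamini-Hochberg over all genes tested at 0.05. The numbers were taken to pair the libraries because deviations from the group means correlated between same-numbered libraries of every pair of groups (0.555 to 0.887, and 0.854, 0.887 and 0.671 for the mutant pairs). No label says what a number marks. edgeR 4.0.16 quasi-likelihood on the recovered reads with the block called 979 genes. On simulated data 200 of 15529 genes were changed, all drawn from genes with a mean control value of at least 50. The fit recovered 96% at log2 1 and 99% at log2 2, and recovery of weaker genes was not tested. Of its calls 7.14% were false, above the nominal share of 0.05 (5%).

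Symbols are RefSeq names matched by sequence name (28900 genes), and coordinates come from Ensembl release 115 of WBcel235 (29778 genes matched), by name only. Of the 980 calls, 123 share at least 50 exonic bases with another protein-coding gene and 23 match another gene's value to within 5% in every library. Such matches were sought only among genes with a mean of at least 50 normalised reads. The members and the 48 gene lists were chosen with earlier results of these data known. Named genes are 12 of the statin and p38 literature, the 15 largest rises and 15 largest falls called with the same sign in all pairs at a mean of 5 CPM or more, up to 4 called members per list of largest change or the lowest p where none was called, the 10 lowest p for the difference between genotypes, the 6 called genes of highest mean, and tissue markers. cyp-34A2, cyp-25A1, cyp-35C1, irg-3, dod-24, pud-2.1, pud-2.2, xbp-1 and pmk-1, and genes named in the closing observations, were chosen after their values were seen. Alternatives were no block, mutant libraries alone, other pseudocounts (0.5 and 5), filters (none and 50) and scaling (TMM), edgeR, DESeq2 1.42.0, sums over models, and leaving out libraries. Sequences were not used here.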

Additional observations from a re-analysis of the deposited data

Results flagged for a closer look

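For 3 genes among those with the lowest p for the difference between genotypes, all 3 mutant pairs moved opposite to all 3 wild-type pairs. None passed adjustment over 15529 genes, since limma's smallest adjusted p was 0.9997.

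ugt-19, a UDP-glucuronosyltransferase gene, went from 139, 112 and 99.99 to 106, 92.3 and 73.9 normalised reads in the mutant and from 170.5, 156 and 189 to 269, 262 and 227 in wild type. The log2 change in the mutant minus that in wild type was -0.9251 ± 0.19 (SE, limma unadjusted p = 0.000221). Only the wild-type rise was called (log2 0.56 ± 0.13, adjusted p = 0.0174).

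gnrr-4, a gene of the gonadotropin-releasing hormone receptor family, went from 44.7, 42.8 and 47.7 to 65, 64.3 and 59.2 in the mutant and from 85.2, 59.7 and 70.02 to 58, 40.6 and 57.2 in wild type, and neither change was called. The difference was 0.9299 ± 0.23 (unadjusted p = 0.00139).

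oac-7, an O-acyltransferase homologue gene, went from 20.3, 10.5 and 19.8 to 13.5, 10.3 and 8.45 in the mutant and from 7.83, 6.33 and 8.31 to 16.6, 14.6 and 21.3 in wild type, all at or below 21.3 normalised reads. The difference was -1.687 ± 0.43 (unadjusted p = 0.00162), and the wild-type rise was called (adjusted p = 0.041).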

How the results depend on the processing

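Calls in the mutant depended most on the replicate block. With no replicate block 214 genes were called, 175 higher and 39 lower, against 980, 500 and 480 with it, so rises made up 81.8% of the calls instead of 51.0%. Leaving out 1 mutant library or all libraries of 1 replicate number gave 563 to 775 calls, 343 to 433 higher and 212 to 357 lower. The 9 other alternatives gave 828 (DESeq2) to 1004 calls (pseudocount 5), and no call changed sign under any of these settings. Of 177 named genes, 77 lost their call without the block and up to 47 on leaving out libraries (replicate 1). The difference between genotypes had 0 calls under every setting it was fitted in except DESeq2, which called 1, irg-5. TMM moved the median of all genes by -0.0034 log2 units. Where an arm was left with 2 libraries, the spread was that of the pooled fit. The cause of these shifts was not tested. Depth limits genes under about 10 normalised reads, where 1 read is a large share of the value.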

Other observations

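Rises with fluvastatin in the mutant were most frequent on chromosome V. It holds 19.2% of the genes tested and 40.8% of the rises (204 of 500), so that 6.85% of its genes rose, against 1.43 to 4.26% on the other nuclear chromosomes. Among genes in none of the 48 lists, 4.45% on chromosome V rose, against 1.76% elsewhere. Gene clusters were taken by shared clone name, as clones in which at least 4 genes rose or at least 4 fell. On chromosome IV, 4 of 6 genes of clone F49F1 rose: F49F1.7 went from 20.3, 50.5 and 44.2 to 703, 627 and 801 normalised reads (log2 4.27 ± 0.34), drd-50 from 20.3, 66.7 and 41.9 to 578, 622 and 706 (log2 4.003 ± 0.38), and mul-1, a mucin-like gene, and F49F1.5 rose by 2.95 ± 0.22 and 2.16 ± 0.26. On chromosome V, 6 of 8 genes of clone F35E12 rose, among them irg-5 and dct-17 (log2 1.05 ± 0.15). Without the block F49F1.5 was not called, and of the 6 in F35E12 only F35E12.9 was (limma adjusted p = 0.0208). Neighbours can share reads where they overlap, and the part of that was not tested.

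The nspc genes, which encode small secreted nematode peptides, fell together on chromosome X. Of 20 tested, 17 were called lower with the block and 0 without it, and all 20 had negative log2 changes between -1.03 and -0.32. nspc-18 had the largest, from 153, 129 and 186 to 71.8, 69.9 and 85.6 normalised reads without overlap (log2 -1.03 ± 0.13, adjusted p = 0.000146). Family members resemble each other, so reads may be shared. In 3 neighbouring copies on chromosome II, F45D11.14, F45D11.15 and F45D11.16, the values were nearly identical. F45D11.14 went from 266, 272 and 679 to 92.9, 136 and 208, with the control of replicate 3 highest (log2 -1.40 ± 0.26, adjusted p = 0.376 without the block).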
